A study of Mus musculus with 105 samples.

Results

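The 85 genes described here are the mouse cytosolic ribosomal protein genes and their paralogs, chosen by symbol and gene type alone from the 53379 genes of a raw count table. They comprise 76 core genes, 8 paralogs named after another member, and Rps19bp1, which encodes a protein that binds Rps19. The core set holds 46 large-subunit (Rpl) and 30 small-subunit (Rps) genes. Of the 85, 84 passed the filter on low counts in the tissue libraries and 83 in the tumour-line libraries; Rpl10l passed neither, and Rpl3l passed only in tissues. All 76 core genes were tested in every comparison.

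Each cytosolic ribosome carries a single copy of nearly every core protein, so the core genes are known as a set transcribed at high and matched levels. Their transcription usually starts at a C followed by a run of pyrimidines, the 5′ terminal oligopyrimidine (TOP) tract, through which mTOR signalling and Larp1 control their translation. Several paralogs are known for a restricted range, among them Rpl3l in striated muscle, Rpl39l and Rpl10l in testis, and Rps27l downstream of p53.

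Poly(A) RNA was sequenced in tissue and cell libraries, all of strain C57BL/6. The healthy tissues were 12 organs of wild-type (WT) female mice, 4 libraries each: brain, colon, heart, kidney, liver, lung, ovary, skin, spleen, stomach, thymus and a tissue labelled LN. The 5 melanocyte libraries came from pigment cells grown from newborn mice for 2 to 3 weeks. The tumour lines were B16 and B16OVA (melanoma), MCA101OVA (fibrosarcoma) and MC38 (colon adenocarcinoma), kept under puromycin without further treatment. Each line had WT cells, cells labelled Ctrl, which the labels describe no further, and Setdb1 knockout (KO) cells, with 3 libraries a group and 6 in B16OVA. Setdb1 encodes a histone H3 lysine 9 methyltransferase. Another 7 WT tumour-line libraries came from a run without a replicated group and entered no test. The labels do not say whether the libraries of a cell line came from separate cultures, so p-values measure the spread between libraries, which may be technical.

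Library totals ran from 17186211 to 254103370 counts, with a median of 46917046. Summed marker levels matched the label in 10 of 12 tissues, where every library of the tissue was above every other library. The exceptions were LN, at 970 to 1576 CPM (counts scaled to a library total of 1000000) against 1877 in a spleen library, and ovary, at 713 to 4281 CPM against 1666 in a kidney library. In 9 libraries the expression of short transcripts was raised over that of long ones (slope of log2 CPM on log2 length, relative to libraries of the same line or tissue, below -0.15). These were 7 of the 45 tumour-line libraries, 1 melanocyte and 1 stomach library, and the steepest were B16OVA Ctrl 2 (-0.71), MCA101OVA Ctrl 2 (-0.50) and MC38 Ctrl 1 (-0.40). Core ribosomal protein transcripts are short, with a median length of 773 bases, and the part of this tilt in their levels was not tested beyond leaving those libraries out. Setdb1 mRNA fell by 1.85 in the B16 knockout, by 1.18 in that of B16OVA and by 1.40 in that of MCA101OVA on the log2 scale (edgeR adjusted p at most 0.00749). In MC38 it spanned 60.05 to 85.29 CPM in the KO and 54.87 to 124.9 CPM in Ctrl, groups that overlapped (log2 difference -0.52, adjusted p = 1) and did not bear out the label at the mRNA level; these are called the libraries labelled MC38 KO.

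The RefSeq promoter table (GRCm38.p6, 250 bases before to 50 after each start) held 65 of the 85 members, 56 of them core genes with 66 promoters. The windows below run from 25 bases before the start site to 15 bases from it on, 5′ to 3′, and are shown because the pyrimidine tract is the sequence feature the family is known for. Capitals mark the unbroken run of C and T that holds the first transcribed base.
Rpl15 (chr14:18270972-18271011, minus strand): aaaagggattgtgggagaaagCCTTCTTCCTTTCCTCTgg
Rpl35 (chr2:39005117-39005156, minus strand): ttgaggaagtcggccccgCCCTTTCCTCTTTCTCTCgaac
Rps18 (chr17:33955651-33955690, minus strand): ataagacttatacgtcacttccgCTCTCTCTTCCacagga
Rps27 (chr3:90213634-90213673, minus strand): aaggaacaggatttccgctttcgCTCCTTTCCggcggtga
Rps27rt (chr9:114982725-114982764, minus strand): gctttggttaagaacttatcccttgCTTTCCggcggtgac
Rps27l (chr9:66946061-66946100, plus strand): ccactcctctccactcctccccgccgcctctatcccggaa
Rpl3l (chr17:24727801-24727840, plus strand): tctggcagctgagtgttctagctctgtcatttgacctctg
Rpl39l (chr16:10170203-10170242, plus strand): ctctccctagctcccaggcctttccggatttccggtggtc
The 4 core genes and Rps27rt, a gene whose coding sequence is identical to that of Rps27, began inside such a run, and the starts of Rps27l, Rpl3l and Rpl39l did not. The 4 core windows are all among the 13 of 66 core promoters that open with C and 4 pyrimidines, so they do not stand for the core set. The start of Rpl39, the parent of Rpl39l, lay in a run of 5 and did not open in that way.

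Of the 66 core promoters, 13 (19.7%) had C and then 4 pyrimidines as the first 5 transcribed bases, against 2.51% of all 32851 promoters in the table. A run of 8 or more pyrimidines within 20 bases of the start was present in 29 (43.9%) against 16.05% of all promoters. The hexamer CTTCCG, searched on both strands and present in the lower-case part of the Rps18 window, occurred in 41 (62.1%) against 16.9%. AAGATGGC on either strand was found in 7 (10.6%) against 2.75%, and TATAAA on either strand in 6 (9.09%) against 13.6%. Among the 20131 promoters of protein-coding genes the shares were 2.23%, 15.9%, 21.7%, 3.11% and 12.1% in the same order. These matches describe the letters of the windows; the annotated starts differ from the used starts by an amount not measured here.

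Core ribosomal protein genes took very different shares of the RNA in different organs. They held 0.827%, 0.848%, 0.859% and 0.824% of the counts in the 4 brain libraries, and 7.80%, 5.43%, 7.23% and 4.98% in the 4 spleen libraries. Heart (0.920% to 1.23%), liver (0.968% to 1.13%), kidney (1.43% to 1.73%) and lung (1.72% to 1.87%) were also low. Stomach spanned 1.84% to 4.11%, ovary 2.50% to 3.24% and colon 2.61% to 3.19%. Skin lay at 4.11% to 4.69%, thymus at 3.35% to 5.72% and LN at 4.60% to 5.94%. In the order of their medians, neighbouring organs overlapped between liver and heart, between kidney and lung, from colon through stomach to ovary, and from skin through thymus and LN to spleen. Stomach spread widely and also overlapped lung at its low end and thymus at its high end. Brain lay below every library of the other organs. In the heart the mitochondrially encoded genes took 19.5% to 27.5% of the counts, and without them the heart mean rose from 1.08% ± 0.125 to 1.41% (SD, n = 4 for the first). Fewer cells of a type and less RNA per cell cannot be told apart in such bulk tissue. Melanocytes had 2.91%, 4.48% and 5.86% as lowest, median and highest share. Tumour-line libraries lay between 4.30% and 12.6%, apart from the 3 steeply tilted Ctrl libraries, which reached 16.4%, 23.2% and 19.5%.

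**Figure D1:**
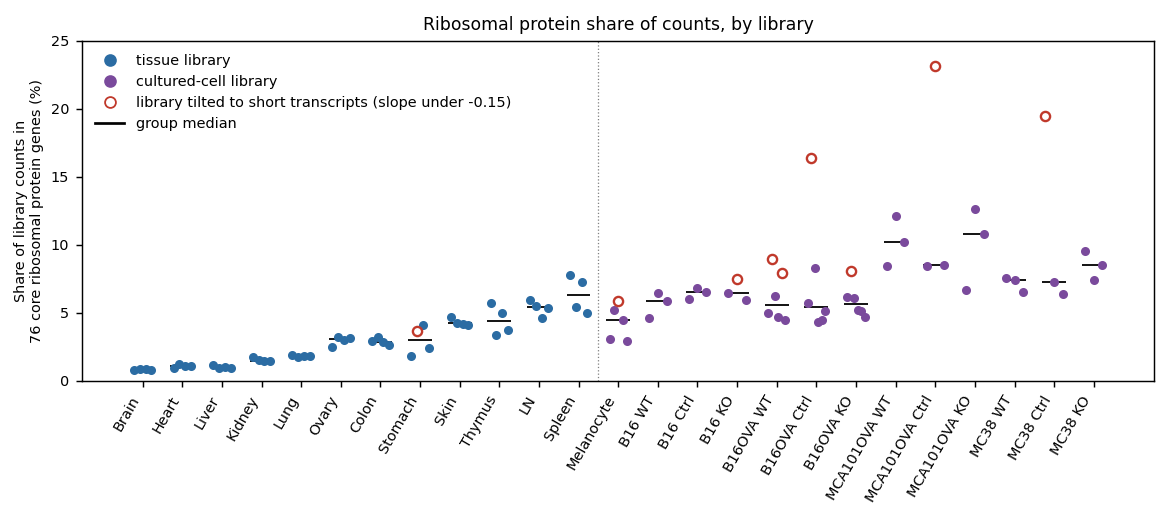
Share of library counts in the 76 core ribosomal protein genes (percent, vertical axis), 1 point a library, by tissue or cell group. Bars are group medians and open red points are libraries tilted to short transcripts; brain libraries lie at 0.824% to 0.859%, spleen libraries at 4.98% to 7.80%, and the 3 highest points are tilted Ctrl libraries at 16.4%, 19.5% and 23.2%.

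Each tissue was then set against the mean of the other 11 in a single edgeR quasi-likelihood fit over 26242 genes, and a gene was called at an adjusted p under 0.05. Fitted differences are on the log2 scale after TMM scaling, which compares each gene with the bulk of genes and not with the library total. In the brain all 76 core genes fell, with a median of -1.80, where 36.2% of all genes tested rose and 35% fell and the median over all genes was -0.17. Rplp0, which anchors the ribosomal stalk, stood at 152, 150, 146 and 163 CPM in brain and at 286 to 2497 CPM elsewhere, without overlap (log2 -2.82 ± 0.15 SE, adjusted p = 4.25e-20). Rpl10, which joins the large subunit late in assembly, was at 94.6 to 111 CPM against 136 to 1007 CPM (log2 -2.38 ± 0.13). Rps20 fell by the same amount, with 63.6 to 68.9 CPM in brain and no library elsewhere under 77.5 CPM.

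Lung followed with 73 of 76 core genes lower and none higher (31.8% of all genes higher and 25.2% lower, core median -0.69). Rps2 was at 318.9, 310.96, 332.9 and 329.5 CPM there (log2 -1.04 ± 0.13), within the range of the other organs, 119 to 1231 CPM. Rps26 (log2 -1.04) and Rpl28 (-0.91) were next. In the kidney 66 core genes fell and none rose (31.4% of all genes higher and 25.6% lower, median -0.55), led by Rpl12 of the stalk base (-1.03 ± 0.13), Rps20 (-0.88) and Rps26 (-0.87). The kidney range of Rpl12, 138 to 181 CPM, lay above that of heart, 94.2 to 126 CPM, so the overlap with other organs came from low organs.

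In the heart 69 core genes fell and 1 rose (31.2% and 28.5% of all genes). Rpl3, a large-subunit protein near the peptidyl transferase centre, was lowest, at 78.7, 166, 175 and 103 CPM against at least 184 CPM in every other organ's library (log2 -1.44 ± 0.12, adjusted p = 4.85e-13). Rps19 (-1.15) and Rpl13a (-1.14) were next. Rps2, a small-subunit protein at the mRNA entrance, was the gene that rose (448, 490, 396 and 504 CPM, log2 0.42 ± 0.12, adjusted p = 0.00168). With scaling by library totals alone its difference was -0.28, and all 76 core genes were lower.

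Liver gave 39 core genes lower and 3 higher, beside 35.7% and 28.5% of all genes, and its core median of -0.29 lay above the median of all genes, -0.44. Rps2 was at 479, 419, 447 and 422 CPM (log2 0.81 ± 0.11), Rpl10 at 258 to 293 CPM (0.47 ± 0.10) and Rpl7a at 267.6 to 321.01 CPM (0.26 ± 0.09). Rps15a, at 59.1 to 71.7 CPM, was under every other organ's library (76.5 CPM or more, log2 -0.88 ± 0.15). Rps27 (-0.72) and Rps19 (-0.63) also fell. By library totals alone the 3 higher genes had values of -0.34, -0.69 and -0.89 and all 76 were lower, while the median of all genes was -1.54; without Liver 2 or Liver 4 the lower count was 24 or 23.

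Spleen and LN were the organs where the whole core set rose. In spleen 76 of 76 rose (34.1% of all genes higher and 31% lower, median 1.17), led by Rps27 at 1573, 1058, 1309 and 822 CPM (log2 1.82 ± 0.13, adjusted p = 8.19e-16). LN libraries, at 775 to 1046 CPM of Rps27, overlapped the lower end of spleen. Rps15a (1.63 ± 0.12) and Rpl12 (1.53 ± 0.11) came next in spleen. In LN 76 rose as well (32.6% of all genes higher and 29% lower, median 0.85), with Rpl12 at 1176, 1098, 900 and 1038 CPM (1.46 ± 0.11), Rps27 (1.44) and Rps16 (1.34) highest.

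Stomach had 75 core genes higher and none lower, beside 33.2% and 26.2% of all genes (median 0.79), and the same counts without the tilted Stomach 2. Rpl41, which encodes the smallest ribosomal protein, led at 324.2, 790.9, 897.3 and 492.1 CPM (log2 1.57 ± 0.14), followed by Rps26 (1.21) and Rps12 (1.17). The stomach libraries of Rpl41 overlapped other organs (104 to 973 CPM), so this fold is on the fitted scale; by library totals alone 54 core genes were higher and the median was 0.33. Skin had 70 higher and 1 lower (30.4% and 27.4% of all genes, median 0.51). Rplp0 was at 2497, 2299, 2307 and 2121 CPM in skin (log2 1.33 ± 0.10), a range that met that of spleen, 1661 to 2276 CPM. Rpl12 (1.03) and Rps12 (1.00) followed, and Rpl13a fell (-0.52 ± 0.14). In thymus 67 rose and none fell (39.9% of all genes higher and 29.1% lower, median 0.57). Its first gene was Rpl13a, at 43.96, 28.78, 45.02 and 38.22 CPM against 3.741 to 51.001 CPM elsewhere (1.13 ± 0.11), followed by Rps14 (0.99) and Rps15a (0.96).

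Colon and ovary were the organs nearest to the average. Colon had 24 core genes higher and 1 lower, shares under or near the 30.5% and 24% of all genes, with Rpl7a (0.59 ± 0.09), Rpl41 (0.58) and Rpl18 (0.56) at the top. Its only lower gene, Rpl13a (-0.32, adjusted p = 0.0416), was not called in any fit that left out 1 colon library, and 12, 14 or 14 core genes rose without Colon 2, 1 or 4. Ovary had 15 lower and none higher (23.2% and 32.4% of all genes), with Rps29 at 255.5 to 314.1 CPM (-0.59 ± 0.16), Rplp1 (-0.49) and Rpl38 (-0.45) lowest. By library totals alone the split in ovary turned to 48 higher and none lower, and the median of all genes moved from 0.00 to 0.51. Without Ovary 1, 2 or 3 the lower count was 2, 5 or 3.

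**Figure D2:**
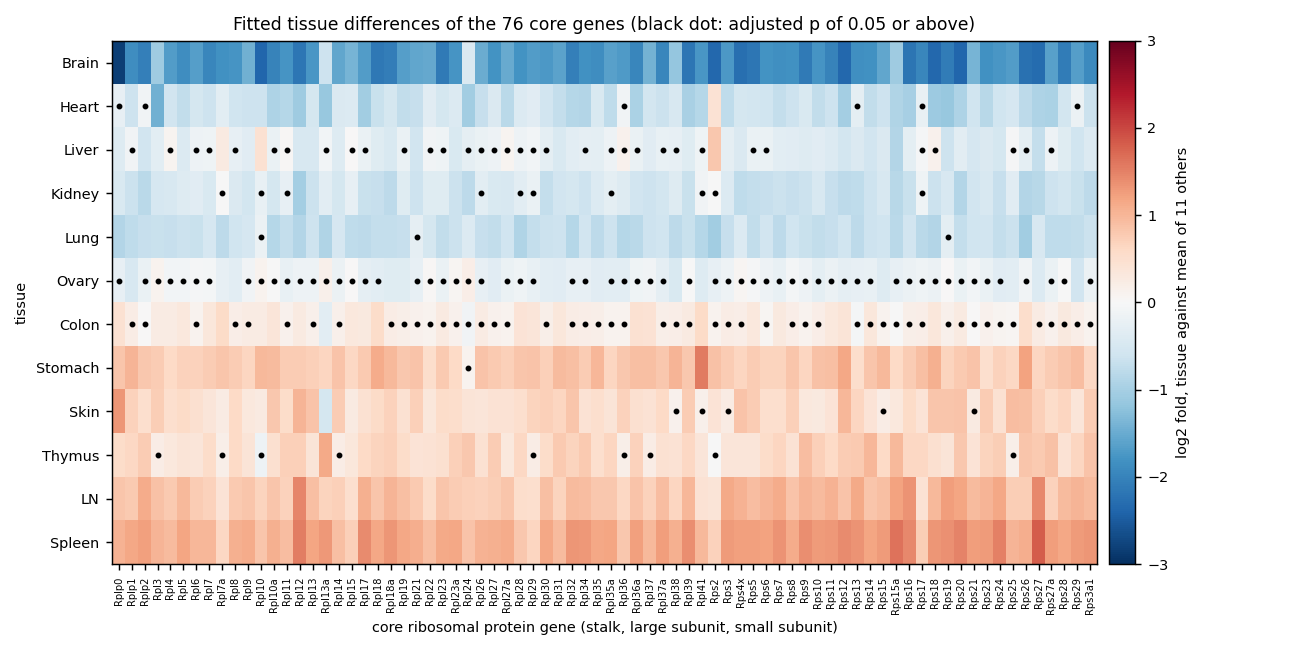
Fitted log2 difference of each core gene (horizontal axis: stalk, large subunit, small subunit) in each tissue against the mean of the 11 others (vertical axis), as colour; black dots mark genes not called. Brain is blue for all 76 genes and spleen and LN are red for all 76, while Rps2 is red in heart and liver.

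The core genes kept close to each other across organs. Over the 12 tissue means the median Pearson r between core genes was 0.979, and 2822 of 2850 pairs exceeded 0.8; the points share libraries and scaling, and no test was made. Spleen held the highest level of 74 core genes, skin that of Rplp0 and thymus that of Rpl24. The lowest level was in brain for 55, in liver for 14 and in heart for 7. From the lowest to the highest organ the level changed by a median of 7.74-fold, from 4.23-fold for Rpl15 to 15.4-fold for Rps27. Rps27, Rpl12, Rps12, Rps20 and Rplp0 spread most over the organs (SD of log2 CPM 1.31, 1.29, 1.24, 1.23 and 1.19). Rpl7a (0.77), Rpl15 (0.77), Rps2 (0.79), Rpl36 (0.81) and Rpl22 (0.82) spread least. After removal of each organ's median over the core genes the SD fell to a median of 0.18, and was highest for Rps2 at 0.59. The least alike genes, by mean r with the other core genes, were Rps2 (0.825), Rpl13a (0.835), Rpl24 (0.851), Rpl10 (0.898) and Rpl41 (0.924).

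Per kilobase of transcript, the highest tissue means were those of Rplp1 (1380 CPM per kb), Rps24 (1292), Rps27 (1224), Rps29 (962) and Rps15 (936), around a core median of 474. Rpl24 (0.936), Rpl13a (23.0), Rps15a (59.2), Rpl22 (95.6) and Rps20 (97.0) were lowest. The lengths used for Rps15a, Rpl22 and Rps20 (5130, 2048 and 3706 bases) were among the longest and set their place. Rpl24 and Rpl13a share 71.5% and 59.3% of their bases with an overlapping gene on the same strand, where reads can be lost as ambiguous, and their levels are uncertain. Rps10, at 403 CPM per kb, overlaps by 91.6%. Many members also have near-identical pseudogenes: a median of 63.2% of a core gene's 50-base words occurred in another annotated gene. The 20 core genes above 80% had a median of 432 CPM per kb, and the 20 below 40% had 575.

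Rpsa and Fau, genes of small-subunit proteins that the symbol rule does not reach, had fitted log2 differences of -1.95 and -1.69 in brain and 1.34 and 1.42 in spleen. Of 15 translation factors and other mRNAs with a TOP-type start, all 15 fell in brain and in lung, 15 rose in spleen, 13 in LN, 11 in stomach and 10 in thymus. All these shares exceeded those of all genes given above for the same organs. By library totals alone the stomach count was 4 higher and 5 lower. Rack1, a scaffold on the small subunit, fell by 2.34 in brain and rose by 0.92 in LN. In the heart 4 of this list rose and 7 fell, beside 28.5% and 31.2% of all genes, and by library totals alone 1 rose and 13 fell. There Eef1a1, the tRNA-delivering elongation factor, fell by 1.79 and Naca, a chaperone of nascent chains with a muscle isoform, rose by 1.86. Among 33 ribosome biogenesis genes, 29 rose in spleen, 24 in LN and 22 in thymus, and 32 fell in lung and 22 in brain, which by library totals alone were 23 in lung and 17 in brain. Nop56 of the box C/D particle rose by 1.11, 0.81 and 1.32 in spleen, LN and thymus. In liver Rcl1, an rRNA processing enzyme, rose by 3.85, while 13 of the list fell and 9 rose, near the 35.7% and 28.5% of all genes (31 and 1 by library totals alone). Of 12 proliferation genes, 12 rose in spleen and thymus and 11 in LN and colon, and all 12 fell in brain, heart, kidney and liver. The biogenesis counts in spleen, LN, thymus, lung and brain and these proliferation counts were larger shares than those of all genes in the same organs. Skin, with 70 core genes higher, had 5 of 12 proliferation genes higher and 1 lower (30.4% and 27.4% of all genes). Stomach, with 75 core genes higher, had 9 higher and none lower (33.2% and 26.2% of all genes). By library totals alone 6 were higher and none lower in either organ.

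Upstream regulators were mixed. Myc, a transcription factor that drives ribosome synthesis, rose in thymus (1.97 ± 0.13), spleen (1.74), LN (1.64) and skin (1.61) and fell in brain (-3.96 ± 0.21), heart (-2.10) and lung (-1.35). Mtor fell in spleen (-0.88) and rose in kidney (1.40). Larp1, the protein that binds TOP starts, rose in liver (1.43) and fell in lung (-0.42). Of the 10 regulators, 1 rose and 5 fell in spleen (34.1% and 31% of all genes) and 4 rose and 5 fell in brain (36.2% and 35%). By library totals alone these were 4 and 3 in spleen and 5 and 4 in brain, so the direction of the list turned in both organs.

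The mitochondrial ribosome, built from nuclear-encoded proteins of its own, followed another order. Of 77 tested genes, 72 rose in heart (median 1.04), where 69 cytosolic core genes fell, 66 in kidney (0.55), 65 in liver (0.74) and 73 in stomach (0.71). Mrpl42 rose by 2.84 in heart and Mrps6 by 2.21 in kidney. In LN 66 fell (median -0.49) and in skin 64 (-0.52), where the cytosolic genes rose. Lung and brain were low in both sets. In lung 75 of 77 mitochondrial genes fell, and in brain 54 fell and 5 rose (42 and 11 by library totals alone). Ovary had both medians below 0 (-0.20 for the core genes, -0.44 for the mitochondrial set). Stomach and colon had both above 0 (0.20 and 0.06 in colon). By library totals alone the mitochondrial counts in heart and kidney were 46 higher and 11 lower, and 50 and 3. Skin had 36 lower and 7 higher, LN 23 lower and 12 higher (median -0.10), and stomach 43 higher and 9 lower. Scaling turned the direction in liver (10 higher, 50 lower), ovary (0 and 65 to 23 and 5), spleen (1 and 42 to 19 and 11) and thymus (11 and 22 to 53 and 3).

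**Figure D3:**
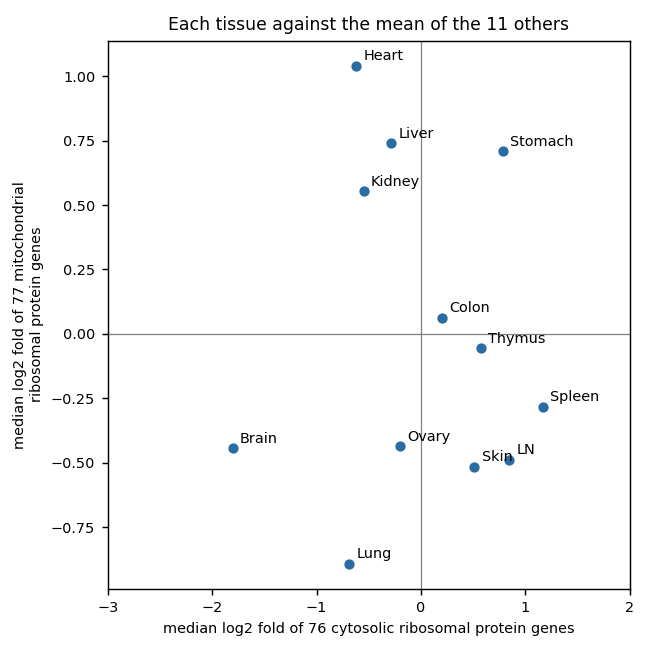
Median fitted log2 difference of the 76 core cytosolic genes (horizontal axis) and of 77 mitochondrial ribosomal protein genes (vertical axis), 1 point a tissue against the mean of the 11 others. Heart lies at -0.62 and 1.04 and LN at 0.85 and -0.49. Brain, lung and ovary are below 0 on both axes, and stomach and colon are above 0 on both.

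Among the paralogs, Rpl3l (chr17:24727820-24736143 on GRCm38, 74.2% identical to Rpl3 in coding bases) was high in a pair of organs. It was at 210.6, 194.3, 106.1 and 227.7 CPM in heart and at 20.8, 32.0, 23.1 and 22.1 CPM in skin, and no library of another organ exceeded 2.74 CPM. Its fitted difference was 9.82 ± 0.32 in heart (adjusted p = 2.39e-26) and 5.62 ± 0.30 in skin. Per length it stood at 1.87 ± 1.06 times Rpl3 in heart (SD, n = 4, 0.680 to 3.00) and at 0.0289 times in skin. The heart library with the least Rpl3l, Heart 3, had the most Rpl3. Nppa, the atrial natriuretic peptide gene, was at 92.4, 4310, 7017 and 155 CPM in the 4 heart libraries, and Rpl3 was higher in Heart 2 and 3, the libraries with high Nppa. Fibroblast-type markers summed to 1007 CPM in Heart 3 and to 290 to 457 CPM in the others. The part of either in the Rpl3 and Rpl3l values was not tested. Skin libraries carried 3895 to 5922 CPM of skeletal muscle markers. Liver was also called higher (1.55 ± 0.43), from a single library: Liver 2 had 2.74 CPM of Rpl3l and 419 CPM of skeletal muscle markers, and the other livers at most 0.111 and 1.07 CPM. Without Liver 2 the difference was -1.72. The part of skeletal muscle RNA in the skin values was not tested.

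Rpl39l (chr16:10170226-10174911, 85.3% identical to Rpl39) was low in most organs. Skin led with 3.48, 2.07, 1.90 and 2.00 CPM (log2 4.91 ± 0.23), and LN, ovary, spleen and thymus also rose, at levels of at most 0.632 CPM. Kidney, stomach, colon, brain and liver fell, where libraries held 0 to 6 counts. The liver call was lost in DESeq2 and without Liver 1, 2 or 4. In melanocytes it reached 14.7, 6.80, 20.5, 1.95 and 0.578 CPM, and no B16OVA WT library held a count, which puts melanocytes at least 239.6-fold higher over a floor of 3 counts summed over B16OVA libraries 4 to 6 (edgeR adjusted p = 0.000861 for 5 against 3 libraries). Melanocyte 1 carried 13371 CPM of fibroblast-type markers and 9037 CPM of pigment-cell markers, the others 133 to 1747 and 30711 to 45248 CPM. Rpl39l was high in Melanocyte 1 and also in Melanocyte 3, which had 677 CPM of fibroblast-type markers and is the melanocyte library tilted to short transcripts. The part of these markers or of the tilt in the Rpl39l values was not tested.

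Rps27l (chr9:66946086-66949516, 76.1% identical to Rps27) moved against its parent in organs such as liver and LN, and in the same direction in brain. It fell in brain, at 7.52, 7.77, 6.93 and 8.56 CPM (log2 -2.91 ± 0.17), and rose in liver (77.9, 72.9, 67.3 and 63.1 CPM, 1.91 ± 0.11), stomach (1.37), kidney (0.96) and colon (0.56). In LN, where Rps27 rose by 1.44, Rps27l fell by 0.82 ± 0.14. Per length Rps27l stood at 0.495 ± 0.0350 times Rps27 in liver, 0.290 in kidney, 0.0256 in spleen and 0.0227 in LN (n = 4 each). Liver libraries ranged from 0.463 to 0.545 and LN from 0.0186 to 0.0300, without overlap. Of 8 p53 target genes, none rose and 6 fell in liver, 3 and 3 did in stomach and 2 and 2 in kidney, where Rps27l rose; 1 rose and 4 fell in brain, 2 and 4 in LN and 2 and 5 in ovary, where Rps27l fell. In colon, where Rps27l rose, 3 rose and 2 fell, and in lung, where it fell, 4 rose and 1 fell. Of all genes, 28.5% rose and 35.7% fell in liver, 33.2% and 26.2% in stomach, 31.4% and 25.6% in kidney and 30.5% and 24% in colon. The shares were 36.2% and 35% in brain, 32.6% and 29% in LN, 32.4% and 23.2% in ovary and 31.8% and 25.2% in lung. By library totals alone the p53 counts were 0 and 8 in liver, 1 and 3 in stomach, 2 and 4 in kidney and 3 and 1 in colon. They were 2 and 3 in brain, 4 and 1 in LN and in ovary, and 7 and 0 in lung. Between WT tumour lines Rps27l was lower in MC38 (57.1, 79.5 and 89.4 CPM) than in B16OVA of the same run (177, 237 and 195 CPM, log2 -1.60 ± 0.39, adjusted p = 0.00533). There 5 of the 8 p53 targets were lower and 1 higher, beside 21% and 12.6% of all genes. Rps27l was lower in MCA101OVA as well (-1.21 ± 0.39, adjusted p = 0.0297), a call lost without B16OVA WT 1, MCA101OVA WT 1 or MCA101OVA WT 3.

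Rpl22l1 (chr3:28805436-28807424, 69.7% identical to Rpl22) rose in stomach (36.0, 77.8, 80.9 and 46.7 CPM, log2 1.10 ± 0.13), spleen (0.95), LN (0.64), colon (0.44) and thymus (0.41). It fell in heart (8.81, 14.9, 14.6 and 11.2 CPM, -1.23 ± 0.17), kidney (-0.85), lung (-0.81) and brain (-0.63). Per length it was at 1.60 ± 0.0938 times Rpl22 in brain and 0.521 ± 0.105 in heart; by counts the brain ratio was 0.421, since the Rpl22 length includes long transcripts. Rpl7l1, a relative of Rpl7 with 56.0% identity, varied less: it rose in liver (0.77 ± 0.06), stomach, kidney and spleen and fell in brain (-0.77 ± 0.07), lung and skin. By library totals alone the liver, stomach and skin values of Rpl7l1 were -0.38, -0.037 and 0.063.

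The remaining paralogs had low counts or cannot be told from a copy. Rpl10l was the most restricted: among the tissue libraries only the 4 from ovary held counts (4, 10, 12 and 19), at 0.0534 to 0.260 CPM. Rps27rt, identical to Rps27 over 255 of 255 coding bases, rose in spleen (1.88 ± 0.19) and fell in brain (-2.16 ± 0.28), the directions of Rps27, at 0.246% to 0.621% of Rps27 per length in every replicated group. Rpl36al, 87.9% identical to Rpl36a and overlapped by another gene over 63.1% of its bases, stayed at 0.470 to 0.553 CPM in liver, where it was called higher (0.93 ± 0.17; -0.23 by library totals alone). Reads in that overlap can be lost as ambiguous, and the level of Rpl36al is uncertain. Rps19bp1, which is not a paralog, rose in stomach (0.81 ± 0.12) and liver (0.46, or -0.70 by library totals alone) and fell in lung (-0.64).

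**Figure D4:**
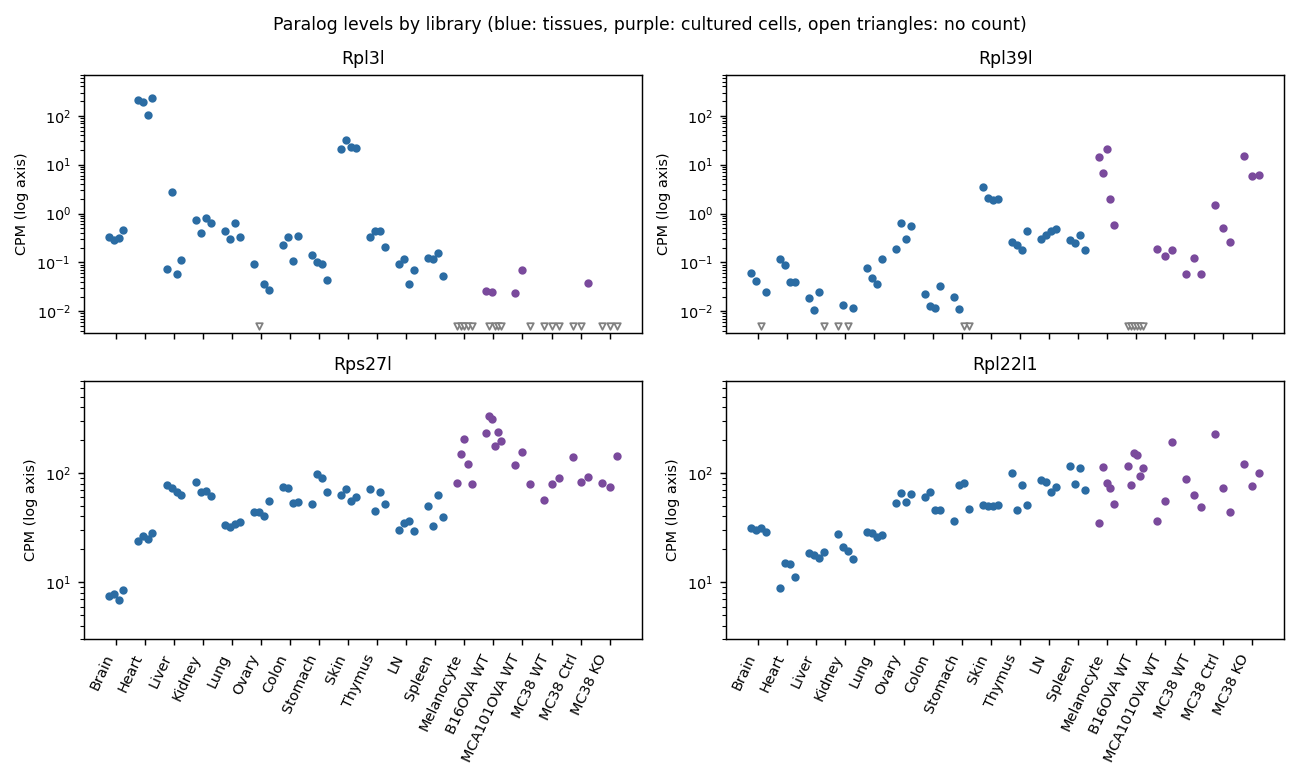
Levels in CPM (log axis) of Rpl3l, Rpl39l, Rps27l and Rpl22l1, 1 point a library, in 12 tissues, melanocytes and selected tumour-line groups; open triangles are libraries with no count. Rpl3l is high in heart (106.1 to 227.7) and skin (20.8 to 32.0), and Rpl39l in melanocytes (0.578 to 20.5) and in the libraries labelled MC38 KO (5.81 to 15.1).

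Cultured WT cells were compared in a second fit over 16729 genes, in which the run is a term, so that B16OVA libraries 4 to 6 stand against melanocytes and MC38 and libraries 1 to 3 against MCA101OVA. B16OVA cells had 15 core genes higher and 1 lower than melanocytes, where 18.4% and 20.5% of all genes were called, and the core median was 0.51. Rpl27 was at 404.8, 950.6 and 392.4 CPM in B16OVA against 188, 227, 297, 188 and 143 CPM in melanocytes, without overlap (log2 1.71 ± 0.38, adjusted p = 0.00263). Rpl32 (974, 1891 and 882 CPM against 268 to 750 CPM, 1.55 ± 0.37) also stood apart. Rpl13a had the largest fold (23.2, 94.5 and 26.6 CPM against 11.2 to 21.1 CPM, 1.76 ± 0.52), set by the tilted B16OVA WT 5, without which it was 0.45 (adjusted p = 0.431). Rpl36a was the lower gene, at 93.6, 60.9 and 95.3 CPM against 88.9 to 272 CPM (-0.98 ± 0.29), groups that overlapped. The count of higher core genes was 1 without B16OVA WT 5, 8 without Melanocyte 5, 23 without the tilted Melanocyte 3, and 3 without all tilted libraries. Of related lists, 12 of 12 proliferation, 18 of 33 biogenesis and 46 of 77 mitochondrial ribosomal protein genes were higher in B16OVA, and none lower. Of the 15 translation factors and other TOP-type mRNAs, 5 were higher and 1 lower. Of the 10 regulators 2 were higher and 1 lower, and of the 8 p53 targets none was higher and 4 were lower. Nhp2 (2.55) and Nop56 (2.11), both parts of small nucleolar particles, led the biogenesis genes.

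MC38 WT had 6 core genes higher than B16OVA WT and none lower (12.6% and 21% of all genes, core median 0.16). Rpl36a was at 327.5, 311.6 and 262.9 CPM in MC38 and 93.6, 60.9 and 95.3 CPM in B16OVA (log2 1.74 ± 0.33, adjusted p = 0.000736), Rps23 at 1077 to 1308 against 416 to 530 CPM (1.18 ± 0.32), and Rps20 at 793 to 1039 against 369 to 457 CPM (1.05 ± 0.29). The groups did not overlap for any of the 3. In contrast, 28 of 77 mitochondrial ribosomal protein genes were lower and none higher. The higher core count was 3 without B16OVA WT 6 or without any 1 of the MC38 libraries, 14 and 10 without B16OVA WT 5 or 2, and 19 without the tilted libraries.

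MCA101OVA WT had 14 core genes higher than B16OVA WT and none lower (13.5% and 15.7% of all genes, core median 0.66). Rpl36a led again, at 392.1, 516.3 and 400.9 CPM against 134, 135 and 168 CPM (log2 1.66 ± 0.32, adjusted p = 0.00112). Rps23 (1414 to 2003 against 507 to 621 CPM, 1.62 ± 0.32) and Rpl17 (1129 to 2034 against 471 to 682 CPM, 1.59 ± 0.32) followed, all without overlap. Both comparisons use B16OVA, which they share only in part, and their values stand side by side. Of the 10 upstream regulators, 1 was called higher, 1 lower and 8 were not called in each comparison, shares under those of all genes. Myc was the higher gene in both, by 1.99 in MC38 and 2.75 in MCA101OVA. The higher count was 7 to 9 without B16OVA WT 1, 2 or 3 or without MCA101OVA WT 1 or 2, 24 without B16OVA WT 5, and 33 without the tilted libraries.

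Between KO and Ctrl libraries no core gene passed the threshold in any line, including the libraries labelled MC38 KO, where Setdb1 mRNA overlapped Ctrl. In these comparisons 0.69% (B16), 1.05% (B16OVA), 0.345% (MCA101OVA) and 0.464% (MC38) of 16809 genes were called in edgeR. At an unadjusted p under 0.05 there were 0, 2, 5 and 3 core genes, and DESeq2 called 0 in each line. The medians over the core genes were 0.08, -0.40, -0.66 and -0.52 in the same order. Without the tilted libraries they were 0.03, -0.06, 0.17 and 0.29. For Rpl41, the B16OVA Ctrl libraries had 622.3, 4043, 1352, 338.2, 365.1 and 412.0 CPM and KO libraries 716, 686, 640, 422, 256 and 381 CPM (log2 -1.05 ± 0.45, adjusted p = 0.571). The value of 4043 CPM is the tilted Ctrl 2. Rpl22 in MCA101OVA (Ctrl 443, 2587 and 406 CPM, KO 417, 702 and 519 CPM) and Rps20 in MC38 (Ctrl 3377, 956 and 726 CPM, KO 1263, 945 and 999 CPM) had a single high Ctrl library in the same way. In B16, without such a Ctrl library, Rpl39 and Rpl7 had the smallest p (log2 0.43 ± 0.63 and -0.20 ± 0.30, adjusted p = 1).

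Ctrl against WT likewise gave no called core gene in the 4 lines, with 0% of all genes called in each and 0, 0, 2 and 13 core genes at an unadjusted p under 0.05 (edgeR). The core medians of 0.26, 0.19, 0.66 and 0.72 became 0.26, 0.17, -0.19 and -0.09 without the tilted libraries. None of the elongation, biogenesis, regulator, proliferation, p53 or mitochondrial ribosomal protein genes was called in these 8 comparisons.

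**Figure D5:**
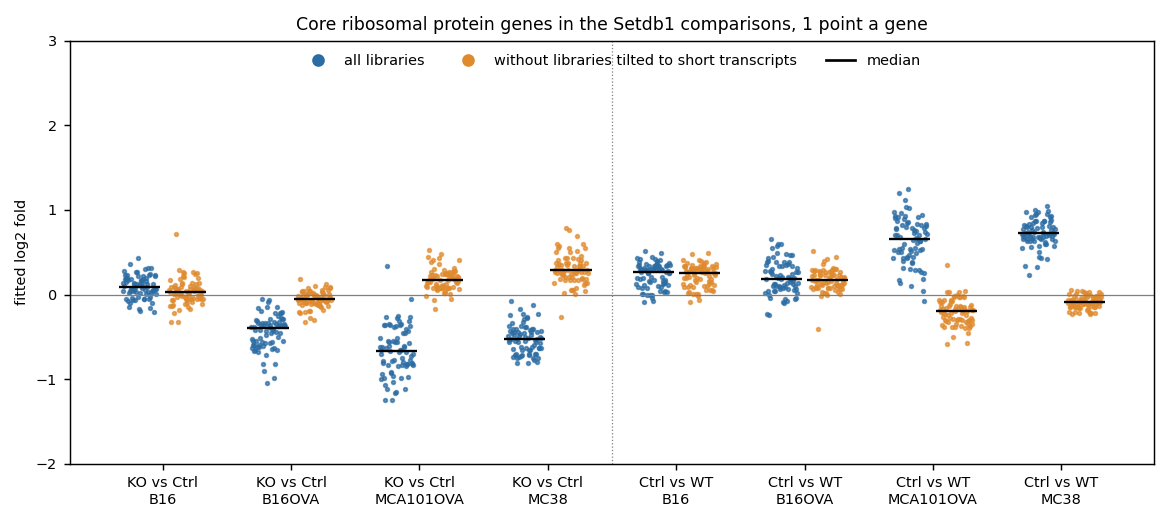
Fitted log2 difference (vertical axis) of the 76 core genes, 1 point a gene, in the KO against Ctrl and Ctrl against WT comparisons of 4 lines, with all libraries (blue) and without those tilted to short transcripts (orange); bars are medians. In MCA101OVA the KO median moves from -0.66 to 0.17, and in MC38 from -0.52 to 0.29.

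The 1 member called between KO and Ctrl was the paralog Rpl39l, in the libraries labelled MC38 KO; it was not called in the 3 lines where Setdb1 mRNA fell. It was at 15.1, 5.81 and 6.28 CPM there, 1.49, 0.512 and 0.263 CPM in Ctrl and 0.0591, 0.126 and 0.0584 CPM in WT, without overlap between KO and Ctrl (log2 3.49 ± 0.63, adjusted p = 0.00809). Summed over the libraries, 577 counts in KO and 60 in Ctrl gave a ratio of 13.1 (95% interval 9.99 to 17.3, counting error only). Ctrl was also above WT in MC38, by a fitted log2 difference of 3.22 that was not called. There 60 counts in Ctrl and 8 in WT gave a ratio of 8.93 (95% interval 4.25 to 21.6, counting error only). The sum of the fibroblast-type markers was also higher in these libraries, at 154, 136 and 96.2 CPM in KO against 70.3, 67.6 and 58.9 CPM in Ctrl. Of them the collagen genes were higher: Col1a2 at 79.3, 59.9 and 33.2 CPM in KO and at 6.37, 4.25 and 3.72 CPM in Ctrl, and Col1a1 at 10.1, 9.08 and 5.64 against 0.910, 0.723 and 1.01 CPM. The other markers overlapped between KO and Ctrl: Pdgfrb (36.7, 43.6 and 28.9 against 29.0, 40.8 and 35.8 CPM) and Twist1 (27.9, 23.3 and 28.5 against 34.0, 21.8 and 18.4 CPM). The part of these markers in the Rpl39l difference was not tested. The adjusted p was 0.104, 0.0879 and 0.116 without Ctrl 2, Ctrl 3 or KO 1, and 0.000723 without the tilted libraries (log2 4.51). In B16 all Ctrl and KO libraries held no count, in B16OVA 1 KO library held a count, and in MCA101OVA the KO had 0.248, 0.470 and 0.259 CPM beside 0.219, 0.320 and 0.267 CPM in Ctrl. The KO to Ctrl difference in MC38 exceeded that in MCA101OVA by 3.34 ± 0.91 on the log2 scale, which was not called (adjusted p = 0.888). Rpl39, the parent gene, was not called in any of the 4 lines, and none of the 83 members tested differed between lines in its KO to Ctrl difference past the threshold.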

How the data were processed

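The deposited table holds raw read counts per gene that the authors made with Trim Galore, FastQC, STAR and HTSeq on mm10, per the submitters' processing notes; versions, annotation, strand setting and handling of multiply matching reads were not given in the sources used here. Libraries were made with a stranded poly(A) kit, per the labels' protocols. Ensembl identifiers were named by GENCODE vM21 (53274 of 53379 matched). Members and lists were chosen with earlier results of these data known. Library totals ran from 17186211 to 254103370 counts, which limits precision by counting least in tissues (53591239 or more).

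Counts were fitted with edgeR 4.0.16 (R 4.3.3, limma 3.58.1): filterByExpr, TMM scaling, 1 term a group plus the run code in the library names, the quasi-likelihood test and Benjamini-Hochberg adjustment over all genes tested, called under 0.05. The 3 fits held 45 tumour-line libraries (16809 genes), 17 WT and melanocyte libraries (16729) and 48 tissue libraries (26242). CPM are per library total, and levels per kb use the median length of a gene's protein-coding transcripts. Scripts were tested on simulated data. Within the sets of libraries that the names define, deviations of same-set samples correlated above 0.1 in all 9 pairs of each of B16, B16OVA and MCA101OVA (lowest 0.182), so sets pair these samples; in tissues 110 of 264 pairs did. None of 154 pairs of libraries in a group were identical.

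Named genes were each paralog with its parent; per comparison the 3 highest and 3 lowest called core genes averaging 1 CPM or more, or the 2 of smallest p where under 3 were called; the 5 core genes at either end of the spread and of the level per kb; Rpsa and Fau; and members called between KO and Ctrl. From other lists up to 3 called genes of largest fold were eligible. Alternatives were RLE factors, library totals alone, no count filter, no run term, the set as replicate block, DESeq2 1.42.0, leaving out each library, and leaving out the tilted libraries. Results that need 1 further gene are not reported here.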

Additional observations from a re-analysis of the deposited data

Results flagged for a closer look

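In 4 of 68 groups of 4 to 10 samples tested, 1 library lay far from the others of its group; chance flags about 1 group in 20. The core ribosomal protein share of B16OVA Ctrl 2 was 16.4%, where the next library of that group had 8.28%, and the same library had 511 CPM of Rpl7l1 against 331.9 CPM in the next. It is the library with the steepest tilt to short transcripts (-0.71). Liver 1 had a core share of 1.13%, where the next liver had 0.985%. Rpl39l was at 3.48 CPM in Skin 1 and at 2.07 CPM in the next skin library.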

How the results depend on the processing

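For single named members, 724 values under other settings kept direction and side of the threshold, 16 lost the call and 12 reversed, all 12 by library totals alone: Rps2 in heart (-0.28); Rpl10 (-0.69), Rpl36al (-0.23), Rpl7a (-0.89), Rpl7l1 (-0.38), Rps19bp1 (-0.70) and Rps2 (-0.34) in liver; Rpl38 (0.073), Rplp1 (0.037) and Rps27l (0.10) in ovary; Rpl7l1 in skin (0.063) and stomach (-0.037). With a library left out 533 kept both, 32 lost the call and 1 reversed (Rpl3l in liver, from -1.72 to 1.95).

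Counts of called core genes moved as follows, and the cause was not tested. Library totals alone gave 0 lower in colon and skin, 0 higher in heart, 0 higher and 76 lower in liver, and 48 higher and 0 lower in ovary. Without a count filter 14 rose in colon, 9 were higher in MCA101OVA than in B16OVA, and 1 was lower in the KO of B16OVA. Without the run term the higher counts were 33 for B16OVA against melanocytes and 31 for MCA101OVA against B16OVA, the lower counts 0 and, for MC38 against B16OVA, 1. RLE factors and DESeq2 gave 10 and 11 higher in MC38. Without the tilted libraries 3 were higher in B16OVA against melanocytes, 19 in MC38 against B16OVA and 33 in MCA101OVA against B16OVA. The replicate block gave 0 lower in colon and changed no other count of core genes by over 1.5 times.

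With 1 library left out, higher counts ran from 1 to 23 (B16OVA against melanocytes), 3 to 14 (MC38), 7 to 24 (MCA101OVA) and 12 to 18 (colon), and lower counts from 0 to 1 (MC38), 0 to 0 (colon), 23 to 38 (liver) and 2 to 16 (ovary). Without mitochondrially encoded genes the core shares were 0.884% (brain), 1.41% (heart) and 1.77% (kidney). The share with ribosomal protein genes added beyond the symbol rule is not reported here. By counts in place of counts per length the paralog to parent ratios were 0.421 (Rpl22l1, brain), 0.00812 (Rpl36al, liver), 0.247 (Rpl7l1, brain) and 0.770 (Rps27l, liver).

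With 3 or 6 libraries a group, all 76 core genes missed the threshold between KO and Ctrl; this does not show that their levels were equal.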

Other observations

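The 7 WT tumour-line libraries that entered no test had core ribosomal protein shares of 5.44% (MC38-OVA), 6.19% (MC38-GFP), 6.89% (MC38), 5.37% (MCA101-OVA), 6.27% (B16-OVA), 5.94% (B16) and 7.61% (MCA101), with 1 library each. The MCA101-OVA value lay below the 8.46% to 12.1% of the 3 replicated MCA101OVA WT libraries, which came from other runs, and run and library cannot be told apart there.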
